A study of Mus musculus with 2 samples.

Results

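The p53 pathway was examined here through Trp53, which encodes the transcription factor p53, the 2 inhibitors of p53 Mdm2 and Mdm4, and 7 further genes that p53 is known to activate directly: Bbc3, Pmaip1, Bax, Ccng1, Phlda3, Zmat3 and Btg2. These 10 genes were picked by name from the 54680 loci of a gene table, and each had 1 row. The table came from RNA sequencing of CT26, a colon cancer cell line of the mouse, with 1 library of total RNA per group from cells grown for 6 days in RPMI 1640 medium with serum. One group (CT26shSetdb1) received, by lentivirus, a short hairpin RNA that targets Setdb1, a methyltransferase of lysine 9 of histone H3, and the labels call these cells differentiated. The other (CT26shCtrl, genotype wild type) carried lentivirus with the empty knockdown vector. Whether the cells were a clone or a pool, and which hairpin was used, is not given in the sources used here.

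Each group had a single library, so no difference below has a replicate check and no p-value is given: the values describe these libraries, not the conditions. Levels are FPKM (fragments per kilobase of gene model, with 1 depth used for both libraries), from which whole reads were recovered. The control library held 18421604 reads and the knockdown library 19045830. Differences are given as the log2 of knockdown over control (FPKM + 1), here called the log2 ratio, on a scale that understates differences of low genes. A count at 2-fold or 1.5-fold uses this scale unless it is said to be by FPKM alone, with nothing added. Read ratios divide each library by its own total and carry a 95% exact binomial (Clopper-Pearson) interval. That interval covers counting error only, because 1 library per group gives no spread between cultures. Any PCR copies counted as separate reads can make it too narrow. Setdb1 itself had 1340 reads in control cells against 317 in knockdown cells, a read ratio of 0.229 (0.202 to 0.259). Of 10 colon epithelial markers, Epcam, Cdh1 and Cdx1 had no reads in either library and 3 reached 1 FPKM (Krt18, Krt19 and Krt20). All 3 were at least 2-fold higher in the knockdown library, beside 6.81% of all genes at 1 FPKM in either library. Krt19, with 1 read in control cells and 53 in knockdown cells, reached that level through the knockdown library alone. Of 5 mesenchymal markers, 4 reached 1 FPKM, 2 higher and 2 lower, with a median log2 ratio of -0.15. Their extremes were Vim, with 752 FPKM in control cells against 835 FPKM in knockdown cells, and Col3a1, with 493 and 163 reads (log2 ratio -0.96). Of 4 leukocyte markers, Cd68 went from 10.4 to 100.2 FPKM and Ptprc had 0 and 4 reads, with none for Cd3e and Itgam. The summed level of the epithelial list was 43.8 FPKM in control and 128 FPKM in knockdown cells. Most of it came from Krt18 (37.75 and 90.0 FPKM) and Krt20 (5.07 and 35.6 FPKM). Of the epithelial markers with reads but below 1 FPKM, Lgals4 had 28 and 23 reads and Krt8 7 and 8. Cdx2 had 5 and 18 reads, and Vil1 had 1 and 7. The part of these markers in the results below was not tested. In bulk RNA, fewer cells expressing a gene and less RNA per cell cannot be told apart.

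p53 is a tetrameric transcription factor that is held at low amounts in unstressed cells, because Mdm2 marks it for degradation and Mdm4 masks its activation domain. DNA damage, oncogene activity and other stresses release it from these inhibitors, largely by changes to the proteins and not to Trp53 mRNA. It then binds paired copies of a 10-base half-site near its targets, which arrest the cell cycle, start the mitochondrial route of apoptosis, repair DNA, alter metabolism or, as Mdm2 does, feed back on p53.

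Sequences around these genes are shown because all 7 of the targets are known for direct binding by p53. RefSeq promoter windows (GRCm38.p6, 250 bases before to 50 after an annotated start) were found for 8 of the 10 genes, not for Pmaip1 and Zmat3, and were searched for the p53 half-site: 3 purines, C, a pair of A or T bases, G and 3 pyrimidines. Since the half-site is its own reverse complement, a single search covers both strands. An exact half-site was present in the windows of 4 of the 8 genes (Trp53, Mdm2, Bax and Ccng1), of 12 of 46 other p53 targets with a window and of 9.55% of all 27025 genes. A pair of half-sites 0 or 1 base apart, with both cores (the C and the G) intact and at most 3 mismatches, was present for 4 of the 8 genes (Trp53, Bbc3, Bax and Ccng1) and for 3.27% of all genes, and exact half-sites can be parts of such pairs. At 1 mismatch or none the share was 0.13% of all genes, and Ccng1 was the member with such a pair. The sites are given 5′ to 3′ on the strand of the gene, with 10 flanking bases in lower case, the half-sites in capitals and any spacer base in lower case. Cdkn1a, which encodes the cell cycle inhibitor p21 and is a classic p53 target outside the 10 genes, is shown for comparison.
Ccng1, pair with 1 mismatch, chr11:40755452-40755491, minus strand: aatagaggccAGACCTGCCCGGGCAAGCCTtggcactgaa
Bax, pair with 2 mismatches and a 1-base spacer, chr7:45467069-45467109, minus strand: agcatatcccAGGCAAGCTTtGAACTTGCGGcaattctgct
Bbc3, pair with 3 mismatches, chr7:16309476-16309515, plus strand: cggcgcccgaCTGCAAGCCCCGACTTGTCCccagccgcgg
Trp53, pair with 3 mismatches, chr11:69580274-69580313, plus strand: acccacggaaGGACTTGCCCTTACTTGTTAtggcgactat
Mdm2, single half-site, chr10:117710925-117710954, minus strand: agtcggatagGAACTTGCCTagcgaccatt
Cdkn1a, pair with 1 mismatch, chr17:29090918-29090957, plus strand: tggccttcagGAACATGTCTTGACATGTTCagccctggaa

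Each match lies upstream of the RefSeq start of its window. The Ccng1 pair runs from 195 to 176 bases before it, the Bax pair from 201 to 181, the Bbc3 pair from 97 to 78, the Trp53 pair from 75 to 56, the Cdkn1a pair from 51 to 32 and the Mdm2 half-site from 186 to 177. The Bbc3 start used here is 1 of 3 with a window and lies within the longer Bbc3 model of the expression table, so that pair is inside the gene model. The Cdkn1a start is 1 of 2 with a window, and the distance of its pair is given from that start alone. The matches are descriptions of letters, and no binding was measured here. Windows without a match, those of Mdm4, Btg2 and Phlda3, say only that these letters are not within them.

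Across the 10 genes, the mRNA of p53 itself was nearly level between the libraries, while 5 of its 7 detected targets (Bbc3, Bax, Ccng1, Phlda3 and Zmat3, but not Mdm2 and Btg2) were lower in the knockdown library. Of the 9 genes that reached 1 FPKM in either library, 7 had lower and 2 had higher values with the Setdb1 hairpin, where 50% of the 10671 genes at that level had a ratio below 0. Bbc3 and Zmat3 were at least 2-fold lower, 2 of 9 genes, beside 4.85% of all genes. None was at least 2-fold higher on the (FPKM + 1) scale, beside 6.81% of all genes, with Btg2 at a log2 ratio of 0.999. By FPKM alone Btg2 was more than 2-fold higher, 1 of 9 genes beside 11.2% of all genes, and Bbc3 and Zmat3 were again the 2 that were at least 2-fold lower, beside 8.85% of all genes. At 1.5-fold, 4 of the 9 were lower (14.3% of all genes) and 1 was higher (16.9% of all genes). The median log2 ratio of the 9 was -0.48, against -0.00039 for all genes. Mdm4 entered these counts through the control library alone, and Pmaip1 did not enter them because it had no reads. Read ratio intervals lay wholly below 1 for 7 of the 9 genes and wholly above 1 for 2, where 40.6% of all genes were wholly below and 35.2% wholly above, so at this depth an interval that leaves out 1 is common.

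**Figure D1:**
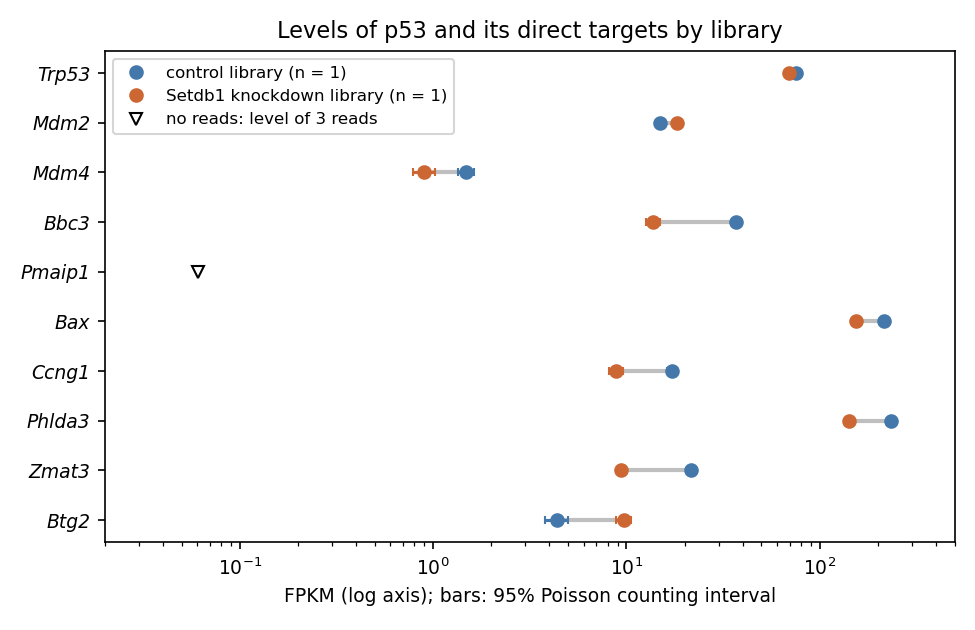
Levels of the 10 genes in FPKM (log axis) in the control library (blue) and the Setdb1 knockdown library (orange), 1 library each, with 95% Poisson counting intervals. Trp53 lies at 75.2 and 69.4 FPKM, the widest gap downwards is that of Bbc3, and Pmaip1, with no reads, is drawn as an open triangle at the level that 3 reads would give.

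Trp53 (ENSMUSG00000059552, chromosome 11, 69580359 to 69591873, plus strand, GRCm38) had 75.2 FPKM in control cells (5699 reads) against 69.4 FPKM (5256 reads) in knockdown cells. The gene was thus well expressed in both, and 92.8% of all genes at 1 FPKM had a lower level than it in the control library. The knockdown level was 92.2% of the control level, its log2 ratio being -0.12 and its read ratio 0.892 (0.859 to 0.926). That difference is larger than counting error and small beside the spread of all genes, of which 41.6% had a lower ratio. A processed pseudogene with the same protein match, Trp53-ps, had 22 and 16 reads, and adding them left the ratio at -0.12. The p53 relatives were close to silent: Trp63 had 14 reads in control cells against 0 in knockdown cells, and Trp73 had 2 and 0. In the knockdown library 0 reads allow up to 0.0191 FPKM for Trp63 and 0.0289 FPKM for Trp73, taking 3 reads as the limit.

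The inhibitors of p53 differed in opposite directions, Mdm2 being higher and Mdm4 lower in knockdown cells. Mdm2 (ENSMUSG00000020184, chromosome 10, 117688875 to 117710758, minus strand) encodes the ubiquitin ligase that degrades p53 and is at the same time a p53 target. It had 14.99 FPKM in control cells (1427 reads) against 18.2 FPKM (1734 reads) in knockdown cells. It was higher in the knockdown library, its log2 ratio being 0.27 and its read ratio 1.18 (1.10 to 1.26). Mdm4 (ENSMUSG00000054387, chromosome 1, 132959484 to 133030561, minus strand) encodes a relative of Mdm2 that binds p53 without degrading it by itself. It had 1.48 FPKM in control cells (411 reads) against 0.898 FPKM (249 reads) in knockdown cells. Mdm4 was lower there, its log2 ratio being -0.39 and its read ratio 0.586 (0.499 to 0.688), and its low level makes the log2 ratio sensitive to the pseudocount (-0.67 with a pseudocount of 0.1). Per length, Mdm2 stood 10.1 times above Mdm4 in the control library and 20.3 times above it in the knockdown library. Cdkn2a, whose alternative product ARF blocks Mdm2, was listed at 0 in both libraries, which allows up to 0.137 FPKM.

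Of the 3 apoptosis genes, all members of the BCL2 family, Bbc3 and Bax were lower and Pmaip1 was not detected. Bbc3 (ENSMUSG00000002083, chromosome 7, 16308393 to 16318205, plus strand) encodes PUMA, a BH3-only protein that neutralises the pro-survival BCL2 proteins. It had 36.9 FPKM in control cells (1468 reads) against 13.8 FPKM (549 reads) in knockdown cells. This was the lowest ratio of the 10 genes, its log2 ratio being -1.36 and its read ratio 0.362 (0.327 to 0.399), and 1.88% of all genes had a lower one. Bax (ENSMUSG00000003873, chromosome 7, 45461697 to 45466898, minus strand) encodes an effector that perforates the outer mitochondrial membrane. It had 215 FPKM in control cells (6357 reads) against 154 FPKM (4558 reads) in knockdown cells. Bax was abundant in both libraries, its log2 ratio being -0.48 and its read ratio 0.694 (0.668 to 0.720). In GENCODE M21, 12.2% of the exonic bases of Bax are shared with Gm45808, a locus on the same strand listed without reads. How reads in that stretch were counted is not given in the sources used here. Pmaip1 (ENSMUSG00000024521) encodes NOXA, a BH3-only protein that acts mainly on MCL1, and had 0 reads in both libraries. The limit of 3 reads corresponds to 0.0605 FPKM. The Pmaip1 model shares no exonic bases with another gene in that annotation, in which its start and end differ from those of the authors' table.

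Bax exceeded Bbc3 5.84-fold in FPKM in the control library and 11.2-fold in the knockdown library. Bbc3 thus differed more between the libraries than Bax, and their read ratio intervals do not overlap.

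Among the targets tied to growth control, Ccng1, Phlda3 and Zmat3 were lower and Btg2 was higher. Ccng1 (ENSMUSG00000020326, chromosome 11, 40748552 to 40755311, minus strand) encodes cyclin G1, which recruits the phosphatase PP2A to Mdm2 and so feeds back on p53. It had 17.2 FPKM in control cells (1130 reads) against 8.86 FPKM (583 reads) in knockdown cells. That is 51.6% of the control level, its log2 ratio being -0.88 and its read ratio 0.499 (0.451 to 0.552).

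Phlda3 (ENSMUSG00000041801, chromosome 1, 135766119 to 135769136, plus strand) encodes a small pleckstrin homology protein that competes with AKT for membrane lipids. It had 234.5 FPKM in control cells (6848 reads) against 142 FPKM (4160 reads) in knockdown cells. It was the most abundant of the 10 genes in the control library and came after Bax in the knockdown library, its log2 ratio being -0.72 and its read ratio 0.588 (0.565 to 0.611).

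Zmat3 (ENSMUSG00000027663, chromosome 3, 32334792 to 32366014, minus strand) encodes a zinc finger protein that binds RNA and regulates splicing and mRNA stability. It had 21.5 FPKM in control cells (4598 reads) against 9.37 FPKM (2007 reads) in knockdown cells. After Bbc3 it had the lowest ratio of the 10 genes, its log2 ratio being -1.12 and its read ratio 0.422 (0.400 to 0.445).

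Btg2 (ENSMUSG00000020423, chromosome 1, 134075170 to 134079120, minus strand) encodes an antiproliferative protein that recruits the CCR4-NOT deadenylase to mRNA, and it is also known as an immediate early gene. It had 4.36 FPKM in control cells (224 reads) against 9.71 FPKM (499 reads) in knockdown cells. Its direction was opposite to that of the other growth-control targets, its log2 ratio being 0.999 and its read ratio 2.16 (1.84 to 2.53), and 6.82% of all genes had a higher ratio. Btg2 lay on the 2-fold line: its log2 ratio was 1.14 with a pseudocount of 0.1, 1.001 with scaling by the median ratio and 0.96 with scaling by the libraries' own read totals.

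**Figure D2:**
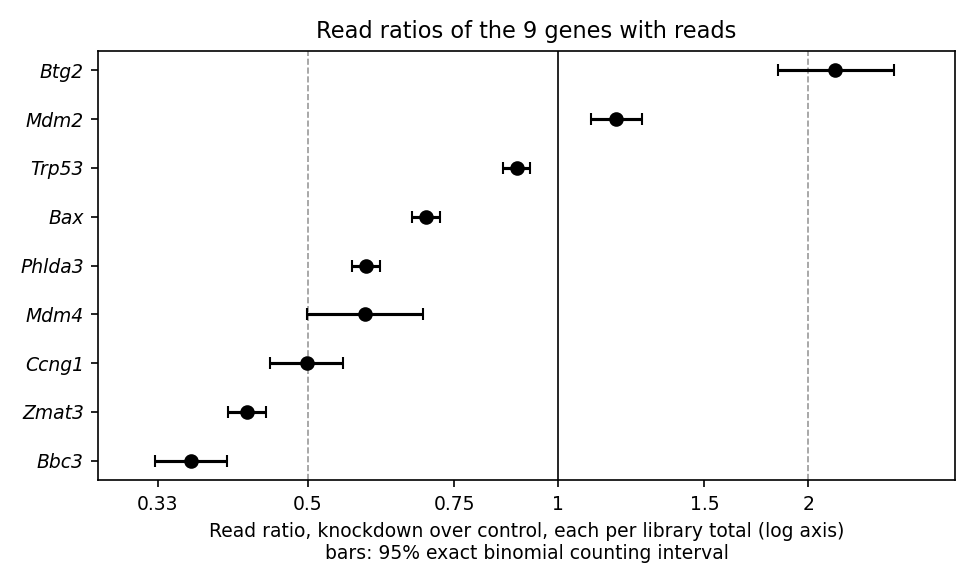
Read ratios of the 9 genes with reads, knockdown over control on a log axis, each relative to its library's total, with 95% exact binomial counting intervals and dashed lines at 2-fold. Bbc3 (0.362) and Zmat3 (0.422) lie wholly left of the 2-fold line, the intervals of Ccng1 and Mdm4 reach it, Trp53 lies at 0.892, and Mdm2 and Btg2 lie right of 1.

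The order of levels among the 10 genes changed between the libraries. In the control library it ran Phlda3, Bax, Trp53, Bbc3, Zmat3, Ccng1, Mdm2, Btg2, Mdm4 and Pmaip1, and no neighbouring Poisson intervals overlapped, those of Phlda3 (229 to 240.1 FPKM) and Bax (210.1 to 221 FPKM) included. In the knockdown library it ran Bax, Phlda3, Trp53, Mdm2, Bbc3, Btg2, Zmat3, Ccng1, Mdm4 and Pmaip1. There the intervals of Btg2 (8.88 to 10.6 FPKM), Zmat3 (8.97 to 9.79 FPKM) and Ccng1 (8.16 to 9.61 FPKM) overlapped, so the order of these 3 cannot be told from counting alone. Summed over the 10 genes, the level was 621 FPKM in control cells against 427 FPKM in knockdown cells.

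**Figure D3:**
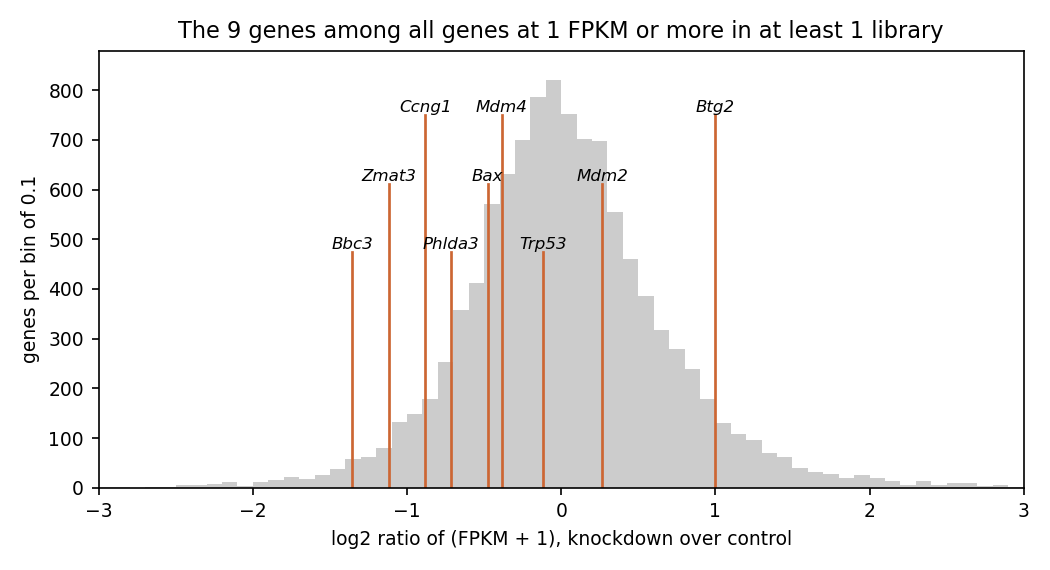
Histogram of the log2 ratios of (FPKM + 1), knockdown over control, for the 10671 genes that reached 1 FPKM in either library (45 genes beyond ±3 are not shown), with lines for the 9 genes with reads. Bbc3 and Zmat3 stand in the lower tail, Btg2 at 0.999 on the upper side, and Trp53 near the centre.

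Further p53 targets, listed by function, did not share one direction. Of 53 targets in these lists beyond the 10 genes, 44 reached 1 FPKM in either library, 22 of them lower and 21 higher, with a median log2 ratio of -0.045. On the (FPKM + 1) scale, 1 of the 44 (Gadd45a) was at least 2-fold lower, beside 4.85% of all genes, and 1 (Ddit4) at least 2-fold higher, beside 6.81%. By FPKM alone, 4 were at least 2-fold lower (Gadd45a, Fancc, Eda2r and Polk), beside 8.85% of all genes, and 3 at least 2-fold higher (Ddit4, Tap1 and Pidd1), beside 11.2%. Their summed level was 1622 FPKM in control cells against 1589 FPKM in knockdown cells. Cdkn1a, the most familiar of them, had 224.8 FPKM in control cells (14962 reads) against 211 FPKM (14059 reads) in knockdown cells. Its log2 ratio of -0.09 and read ratio of 0.909 (0.888 to 0.930) lay close to those of Trp53.

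The arrest list, which includes Ccng1 and Btg2, held the lowest ratio. Of its 9 genes at 1 FPKM, 6 were lower and 3 higher, with a median log2 ratio of -0.09. Gadd45a, a stress sensor that binds PCNA and CDK1, had 56.0 FPKM in control cells (1851 reads) against 7.05 FPKM (233 reads) in knockdown cells. Its log2 ratio was -2.82 and its read ratio 0.122 (0.106 to 0.140), and 0.15% of all genes had a lower ratio. The Gadd45a model shares 19.1% of its exonic bases with E230016M11Rik on the other strand, which had 24 and 5 reads.

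The apoptosis list, which holds Bbc3, Bax, Pmaip1, Phlda3 and Zmat3, had a median log2 ratio of -0.48 over 13 genes, 8 lower and 5 higher. Bbc3, Bax, Phlda3 and Zmat3, described above, are among the 8 lower genes, and the median is the ratio of Bax itself. It therefore repeats the result of these genes. Outside the 10 genes, the ratios of the list ran from -0.92 (Eda2r) to 0.85 (Pidd1). The list median was -0.11 without a filter on low values and -0.72 with a filter of 5 FPKM. Its highest ratio was that of Pidd1, a scaffold for caspase-2, which had 3.99 FPKM in control cells (338 reads) against 7.97 FPKM (676 reads) in knockdown cells, for a log2 ratio of 0.85. Perp, a membrane protein of desmosomes, was listed at 0 in both libraries.

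Repair targets were split, with 3 genes lower, 3 higher and a median of 0 over 7. Polh, a DNA polymerase that copies past ultraviolet lesions, had 584 reads in control cells against 1045 in knockdown cells, for a log2 ratio of 0.73. Fancc, of the Fanconi anaemia core complex, had 300 and 92 reads, a log2 ratio of -0.88, and shares 18.6% of its exonic bases with other genes.

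Metabolic and antioxidant targets had a median of 0.15 over 10 genes, 6 higher and 4 lower. Ddit4, an inhibitor of mTORC1 signalling that is also known to respond to low oxygen and glucocorticoids, had 45.3 FPKM in control cells (1489 reads) against 117 FPKM (3852 reads) in knockdown cells. Its log2 ratio of 1.35 was the highest of the targets listed, and its read ratio was 2.50 (2.36 to 2.66). Sesn2, an inhibitor of mTORC1 under amino acid shortage, had 63.4 and 42.6 FPKM, a log2 ratio of -0.56. Sco2 was listed at 0, with 91.8% of its exonic bases shared with Ncaph2 and Tymp.

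Feedback targets, which include Mdm2, Ccng1 and Zmat3, had a median of -0.33 over 6 genes, 4 lower and 2 higher. Ccng1 and Zmat3 are among the 4 lower genes and Mdm2 is among the 2 higher, so this list partly repeats results given above. The highest was Ppm1d, the phosphatase WIP1 that reverses damage signalling, which had 3.48 FPKM in control cells (207 reads) against 5.54 FPKM (329 reads) in knockdown cells, for a log2 ratio of 0.54. In the list of other targets the median was -0.43 over 9 genes, 5 lower and 4 higher. Its extremes were Slc19a2, a thiamine transporter, with a log2 ratio of -0.76, and Tap1, the peptide transporter of antigen presentation that is also known as an interferon-induced gene, with a log2 ratio of 0.99.

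**Figure D4:**
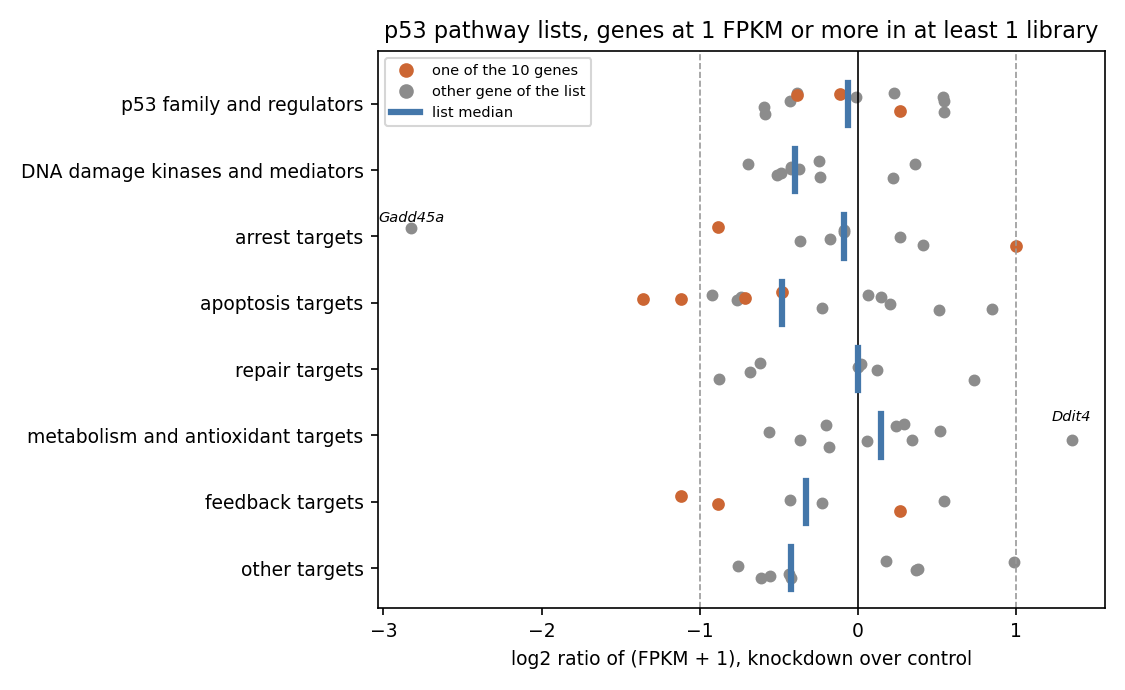
Log2 ratios of (FPKM + 1), knockdown over control, for the genes of 8 p53 pathway lists that reached 1 FPKM in either library, with the 10 genes in orange, other genes in grey, list medians as blue bars and dashed lines at 2-fold on this scale. Gadd45a at -2.82 and Ddit4 at 1.35 are the grey points beyond the dashed lines, and the list medians lie between -0.48 and 0.15.

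The list of the p53 family and its regulators, which includes Trp53, Mdm2 and Mdm4 described above, differed in both directions. Of its 12 genes at 1 FPKM, 7 were lower and 5 higher, with a median log2 ratio of -0.063. None was at least 2-fold lower or higher on the (FPKM + 1) scale, beside 4.85% and 6.81% of all genes. By FPKM alone none was either, beside 8.85% and 11.2% of all genes. The extremes were Hipk2, a kinase that phosphorylates p53, with 227 reads in control cells against 408 in knockdown cells (log2 ratio 0.55), and Crebbp, an acetyltransferase and coactivator of p53, with 538 and 272 reads (log2 ratio -0.59, or 50.6% of its control FPKM). Of 10 DNA damage kinases and mediators at 1 FPKM, 8 were lower and 2 higher, with a median log2 ratio of -0.40. Among all genes at that level, 50% had a ratio below 0. None of these 10 was at least 2-fold lower or higher on the (FPKM + 1) scale, beside 4.85% and 6.81% of all genes. By FPKM alone 1 was at least 2-fold lower, Rad50, at 47.6% of its control level, beside 8.85% of all genes. Of the 15 genes listed, Atm, Atr, Chek1, Prkdc and Rad17 stayed below 1 FPKM and are outside these counts. All of them had fewer reads in knockdown cells. No share of all genes below 1 FPKM was calculated to set beside them, and genes with reads below 1 FPKM in the target lists are not described. Chek1 had 64 and 19 reads (29.7% of its control level), Atr 68 and 29 (42.65%) and Prkdc 140 and 64 (45.7%). Atm had 85 and 60 reads, and Rad17 110 and 108. Rad50, a subunit of the complex that holds broken DNA ends, had 273 and 130 reads (log2 ratio -0.70), and Brca1, which acts in homologous recombination, had 169 and 262 reads (log2 ratio 0.36).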

How the data were processed

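The authors deposited 1 table of FPKM values for 54680 loci with gene model lengths, positions and types, per the file headers. Alignment and counting used HISAT2 and featureCounts 1.5.0-p3 among the tools named, with CASAVA and the build GRCm38, per the submitters' processing notes, while the strand setting is not given in the sources used here. The library names given with the labels tied each column to its sample. FPKM times length came out as whole multiples of 1 step (within 0.01 reads) for 100% of values above 0 in both libraries, so reads were recovered. The same depth of 18731117 reads had been used for both libraries, although their recovered totals differed. FPKM and log2 ratios therefore keep the difference between the totals, which the read ratios take out.

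Log2 ratios of (FPKM + 1) used a pseudocount of 1. Counts and medians used genes that reached 1 FPKM in either library. No test between conditions was possible with 1 library per group. Zero counts were given the limit of 3 reads. The 10 genes, the lists and the naming rule were chosen with earlier results of these data known. The rule named the 10 genes, Setdb1, Cdkn1a, Cdkn2a, Trp63 and Trp73, the extremes of each pathway list and any list gene past 2-fold. Eda2r, Polk, genes at 0, DNA damage genes below 1 FPKM, the markers and Trp53-ps were named after their values were seen. Each of the 10 genes had the same chromosome in GENCODE M21 as in the authors' table, and for 9 the start, end and length were also the same in both. Promoter sequences came from RefSeq. Alternatives were a pseudocount of 0.1, 3 other scalings, no filter or a filter of 5 FPKM, a 1.5-fold threshold, summed loci with the same protein match and, added after seeing the data, FPKM with no pseudocount. The functions were tested on simulated data. Calculations ran in Python 3.11.15 with scipy 1.17.1, numpy 2.4.6 and pandas 2.3.3, and plots in matplotlib 3.10.9.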

Additional observations from a re-analysis of the deposited data

How the results depend on the processing

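No paired analysis was possible because there was 1 library a group, and none could be left out. Over 45 alternative values of single genes among the 10, 44 stayed within counting error, 1 moved (Mdm4, to -0.67 with a pseudocount of 0.1) and 0 reversed. Over 80 alternative values of counts, medians and the Setdb1 ratio, 68 stayed within a set limit, 11 moved and 1 reversed. That limit was 1.5 times the count for counts and counting error for Setdb1. For medians it was the counting error of the middle gene or genes, which is not that of a median and is wide where reads are few. The metabolic and antioxidant median, 0.15 in the main setting and 0.028 without a filter, thus counted as unmoved. With a pseudocount of 0.1 the Setdb1 ratio was -2.04, the median of the 10 genes -0.67 and the number at least 2-fold higher 1, since low genes then weigh more. Scaling by the median ratio also gave 1 gene at least 2-fold higher, Btg2, as did FPKM with no pseudocount, an alternative chosen after seeing the data. The threshold of 1.5-fold gave 1 higher and 4 lower, as its construction makes it. With a filter of 5 FPKM, which leaves fewer genes, the median was -0.60 for the 10 genes and -0.72 for apoptosis targets, and that of targets outside the 10 genes turned to 0.021. Without a filter, genes with few or no reads moved the medians to -0.11 for apoptosis targets and -0.14 for other targets. Own read totals shifted the median of all genes at 1 FPKM in both libraries to -0.043, the largest shift of the 3 scalings. Depth limits Mdm4 and Btg2 most, which had the fewest reads of the 9 genes with reads, and Pmaip1 could not be detected.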
